A study of Arabidopsis thaliana with 4 samples.

Results

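The effect of the zinc finger protein ZFP3 on transcripts of seedlings that germinated on abscisic acid (ABA) was described from 2 of the 4 Arabidopsis thaliana samples of the study. Col-0 wild type was compared with a ZFP3 overexpressing line (ZFP3ox). Both had been on 5 µM estradiol with 2.5 µM ABA for 84 h, so dose and harvest time were the same on both sides. The remaining 2 samples, 1 of each genotype, had been on 5 µM estradiol without ABA and were harvested at 36 h. Estradiol was given to all 4 groups. The transgene promoter is estradiol-inducible, as known from the study, and no source used here says whether the line came from a single transformant.

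Each group was 1 sample of whole seedlings with 2 columns of RPKM, that is, reads per kilobase of gene model, scaled to library size. These are called set 1 and set 2. The labels and headers leave unsaid whether the sets were separate libraries or runs. Therefore the ratio of ZFP3ox to wild type was taken within a set, and both sets had to agree. Genes were chosen where the ratio was at least 2-fold in both sets in the same direction and 1 of the samples had at least 1 RPKM in both columns. Ratios are on the log2(RPKM + 1) scale, which understates changes of weakly expressed genes. Of 22287 genes tested, 143 (0.642%) were higher in ZFP3ox and 114 (0.512%) lower, 257 in all. With 1 sample per group no p-value can be had, so every ratio compares these seedlings and has no replicate check. In whole seedlings a lower transcript level from fewer cells of a type and one from less RNA per cell cannot be told apart.

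ABA is the hormone that keeps seeds dormant and stops the germinated embryo from greening. It acts through receptors that inhibit phosphatases, which frees kinases to activate transcription factors such as ABI5. These bind promoter elements with the core ACGTG and switch on storage protein, oil body and late embryogenesis abundant (LEA) genes, while genes for the photosynthetic apparatus stay low. ZFP3 is a nuclear C2H2 zinc finger protein, known as a negative regulator of ABA responses in germinating seeds.

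On ABA the ZFP3ox sample had higher levels of the nuclear genes for the light reactions of photosynthesis, with 33 of 45 antenna and photosystem genes past 2-fold in both sets. It had lower levels of seed genes, with 12 of 24 listed LEA genes and 3 of 8 listed storage protein genes past 2-fold. Of the genes on the lists of ABA signalling and ABA metabolism 0 of 27 and 0 of 12 were past the rule. This is near the share of all genes, 0.642% higher and 0.512% lower. Outside the lists the ABA importer gene PDR12 was higher. So was the ABA receptor gene PYL10, which was picked after its values were seen and passed the filter through ZFP3ox alone.

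The label of the driven gene was checked first. ZFP3 (AT5G25160) had 15.7 RPKM in wild type and 85.4 in ZFP3ox in set 1, and 1.01 and 44.8 RPKM in set 2. Its log2 ratios were 2.38 and 4.51, and in each set the ZFP3ox sample was the higher. Of the other 9 measured genes of its subfamily none was past 2-fold in both sets. ZFP2, which delays the shedding of floral organs when overexpressed, had ratios of −0.40 and −1.46, and ZFP5, which acts in hair cell formation, had 1.17 and −0.33.

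Agreement of both sets was asked of each gene, which left far fewer than either set alone. In set 1 alone 6.09% of the genes tested were 2-fold higher and 2.87% lower, and in set 2 alone 4.50% and 6.26%. Opposite 2-fold ratios in the sets were seen for 51 genes in all, 39 of them higher in set 1 and lower in set 2. All genes together had a median ratio of 0.14 in set 1 and −0.03 in set 2. With median-of-ratios scaling it was −0.04 and 0.00, and the split became 111 higher and 145 lower, with 109 genes of each direction in common with the unscaled choice. In set 2 a single feature, AT3G43990, held 22.3% of the summed RPKM of wild type and 20.5% of ZFP3ox on ABA. Without ABA it held 18.1% and 28.7%. In set 1 the top feature was another, AT2G01021, with 6.90% and 6.75% on ABA. The part of these features in the ratios was not tested.

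Agreement was more frequent among well expressed genes, as were 2-fold ratios in set 2 in general. Where the geometric mean of both ABA samples in set 2 was under 2 RPKM, 20 of 471 genes that were 2-fold different in set 1 were so in set 2 in the same direction, or 4.25%. Between 10 and 20 RPKM it was 64 of 254, or 25.2%, and between 20 and 50 RPKM 43 of 145, or 29.7%. At 50 RPKM and more it was 13 of 50, or 26.0%. The share of all genes that were 2-fold different in set 2 in either direction was 4.71%, 19.9%, 29.3% and 22.6% in these classes. Both shares thus rose and fell together over the classes. From the low values of set 1 a depth of about 3.19 Mreads (M, mega) was read for wild type and of 2.62 Mreads for ZFP3ox, with 63.5% to 64.3% of values within 0.1 of a whole read. The depth of set 2 is unknown. The 5% lowest genes lay under 5.68 and 7.31 RPKM in set 1 but under 0.55 and 0.60 RPKM in set 2.

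**Figure D1:**
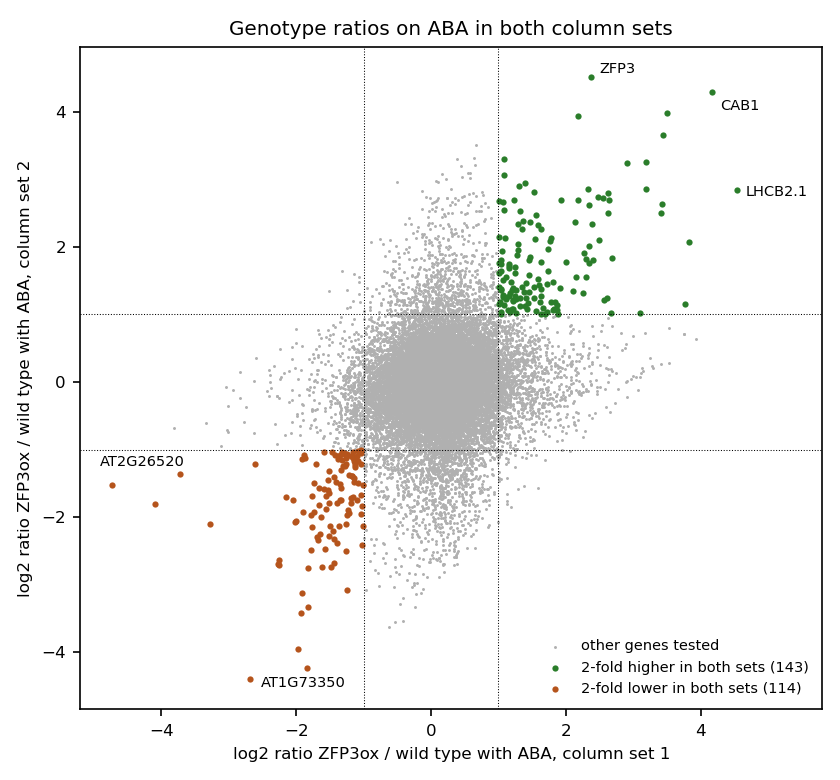
Each point is 1 of 22287 genes, by its log2 ratio of ZFP3ox to wild type on ABA in set 1 (x axis) and set 2 (y axis), with dotted lines at 2-fold. The 143 genes higher in both sets are green and the 114 lower in both are brown, and CAB1 and ZFP3 lie far out in the upper corner.

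**Figure D2:**
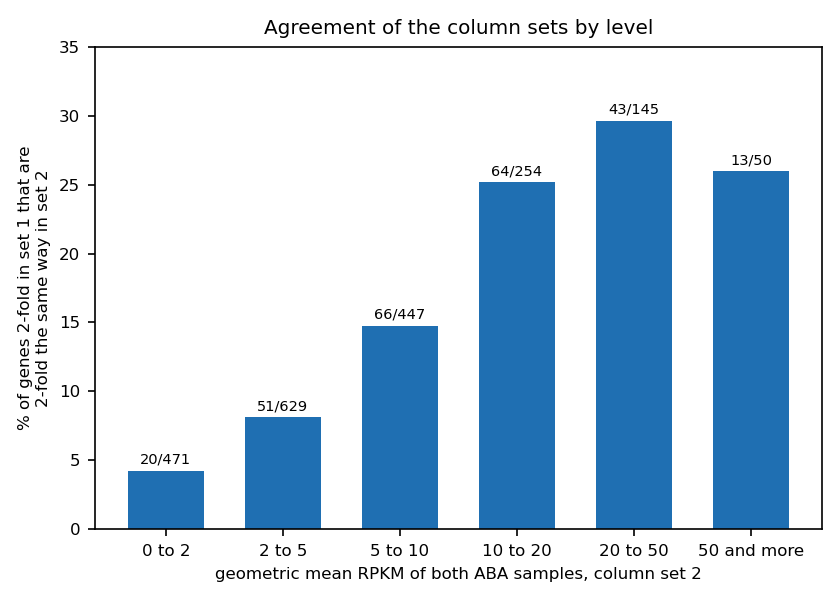
Bars give, for 6 classes of the geometric mean RPKM of both ABA samples in set 2 (x axis), the percentage of genes 2-fold different in set 1 that were 2-fold different the same way in set 2 (y axis, with the counts above). The bars rise from 4.25% in the lowest class to 29.7% between 20 and 50 RPKM and stand at 26.0% in the highest class.

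Light-harvesting antenna genes were higher in ZFP3ox in nearly every member. These encode the chlorophyll-binding proteins that surround the photosystems, LHCB proteins at photosystem II and LHCA proteins at photosystem I. Of 18 measured, 15 were higher in ZFP3ox and 0 lower, with a median of 2.77 in set 1 and 2.62 in set 2, against 0.14 and −0.03 over all genes. CAB1 (AT1G29930), an LHCB1 gene, had 45.5 RPKM in wild type and 837 in ZFP3ox in set 1, and 13.5 and 284 RPKM in set 2. LHCB3 (AT5G54270), the third protein of the trimeric antenna, had 30.1 RPKM in wild type and 232 in ZFP3ox in set 1, and 4.51 and 51.1 RPKM in set 2. In each set both genes were several-fold above wild type. Their log2 ratios were 4.17 and 4.29 for CAB1 and 2.91 and 3.24 for LHCB3. The 250 bases before the annotated starts of these genes are shown because promoter elements bound by light and ABA factors are known from this family. They lie at chr1:10477635-10477884 on the plus strand and at chr5:22037915-22038164 on the plus strand in RefSeq's TAIR10.1, are written in the direction of transcription, and have each ACGTG, or CACGT where it lies on the other strand, in capitals.

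CAB1: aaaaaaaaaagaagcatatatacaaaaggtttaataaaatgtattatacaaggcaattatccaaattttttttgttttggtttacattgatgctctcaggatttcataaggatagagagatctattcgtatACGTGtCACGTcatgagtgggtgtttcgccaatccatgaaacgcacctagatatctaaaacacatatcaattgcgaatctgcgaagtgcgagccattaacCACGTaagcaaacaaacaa

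LHCB3: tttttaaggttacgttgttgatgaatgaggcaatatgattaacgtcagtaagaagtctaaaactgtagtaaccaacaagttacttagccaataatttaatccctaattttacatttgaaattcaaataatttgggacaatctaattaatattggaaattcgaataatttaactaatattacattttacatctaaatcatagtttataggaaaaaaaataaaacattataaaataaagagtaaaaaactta

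The CAB1 stretch held 3 such matches and the LHCB3 stretch 0, and both genes were past 2-fold in both sets. The I-box GATAAG, also in capitals where present, was in neither.

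Ratios differed among the antenna genes. The LHCB1 genes CAB2, CAB3 and LHB1B2 had log2 ratios of 3.45 and 3.65, 3.20 and 3.25 and 3.50 and 3.98. LHCB2.1 went from 8.24 to 214 RPKM in set 1 and from 3.04 to 28.03 in set 2, a ratio larger in set 1 (4.54 and 2.85), and LHCB2.2 had 3.83 and 2.08. Per the deposited parameters, reads that matched up to 10 places were used by the authors, so single values of these near-identical genes are uncertain. Whether these parameters hold for both sets is not stated. The monomeric antenna genes LHCB4.1, LHCB4.2, LHCB5 and LHCB6 had ratios between 2.33 and 3.41 in set 1 and between 2.50 and 2.86 in set 2. At photosystem I, LHCA1 went from 15.4 to 174 RPKM in set 1 and from 4.51 to 33.2 in set 2. LHCA2, LHCA3 and LHCA4 had ratios of 2.31 to 2.62 in set 1 and 1.76 to 2.80 in set 2. The 3 antenna genes not past 2-fold in both sets were the minor ones LHCB4.3 (0.25 and 1.08), LHCA5 (0.14 and 0.05) and LHCA6 (1.54 and 0.49). LHCA5, a linker of photosystem I to another complex, had 18.1 RPKM in wild type and 20.1 in ZFP3ox in set 1, and 4.05 and 4.23 RPKM in set 2, so the genotypes differed little in either set.

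Genes of the photosystem cores and electron transport were higher in 18 of 27 and lower in 0, with medians of 1.62 and 1.38. PSBO1, the main subunit that stabilises the water-splitting cluster, had 18.1 RPKM in wild type and 173 in ZFP3ox in set 1, and 7.73 and 62.1 RPKM in set 2. The ratios were 3.19 and 2.85, and its copy PSBO2 had 2.40 and 1.80. Other photosystem II genes, PSBP-1, PSBQA, PSBR and PSBW, lay between 1.43 and 1.63 in set 1 and between 1.09 and 1.78 in set 2. At photosystem I, PSAO went from 11.6 to 72.8 RPKM in set 1 and from 2.21 to 20.2 in set 2. PSAG, PSAK, PSAL and PSAH2, further small subunits of this complex, had ratios of 1.93 to 2.50 and 2.10 to 2.70. The second plastocyanin gene DRT112, for the copper protein that carries electrons to photosystem I, had 1.77 and 2.09.

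The 9 members not past the rule were spread over several complexes. ATPC1, a subunit of the chloroplast ATP synthase, had opposite signs in the sets (−0.61 and 0.77). PSBS, which dissipates excess light, had 0.64 and 0.61, and FNR1, the ferredoxin reductase, 0.81 and 0.50. PETC, the Rieske protein, lay just outside the rule (0.99 and 0.99). PSBTN, a photosystem II subunit that was not on the list, was higher with 2.002 and 1.77.

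Genes of carbon fixation and photorespiration did not share the size of this difference. Of 22 measured in the Calvin cycle and photorespiration, 1 was higher and 0 lower, with medians of 0.41 and 0.38. That gene was GAPA-2, a chloroplast glyceraldehyde phosphate dehydrogenase, which went from 15.1 to 55.5 RPKM in set 1 and from 4.05 to 13.1 in set 2. The small Rubisco subunit gene RBCS1A had 115 RPKM in wild type and 173 in ZFP3ox in set 1, and 86.9 and 75.1 RPKM in set 2, so its samples differed by less than 2-fold and in opposite directions in the sets. RCA, the Rubisco activase, was 2-fold higher in set 1 only (2.11 and 0.48). In chlorophyll synthesis 1 of 15 was higher, with medians of 0.13 and 0.00. This was CRD1, a subunit of the cyclase that closes the fifth ring, with 32.9 RPKM in wild type and 101 in ZFP3ox in set 1, and 7.83 and 43.2 RPKM in set 2. GUN5, the large subunit of magnesium chelatase, had 2.48 and 0.56 and PORB, which reduces protochlorophyllide in light, 0.61 and 1.78.

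The summed level of each list shows where the ZFP3ox sample stood among all 4. The 18 antenna genes summed to 359 RPKM in wild type on ABA and to 3361 in ZFP3ox on ABA in set 1, against 3825 and 5342 in the wild type and ZFP3ox samples without ABA. In set 2 the sums were 99.3, 913, 3353 and 3304 RPKM in the same order. Wild type on ABA was thus the lowest of the 4 in both sets. For the 22 Calvin cycle and photorespiration genes the sums were 1065, 1457, 2598 and 2815 RPKM in set 1 and 326, 436, 2377 and 1993 in set 2. The samples without ABA were harvested at 36 h, so ABA and age go together in this reading.

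Regulators of greening had small ratios beside these. Of 20 plastid and light signalling genes 0 were higher and 1 lower, with medians of −0.18 and −0.31. GLK1 and GLK2, factors that switch on antenna genes, had ratios of 0.25 and 0.21 and −0.55 and 0.88. HY5, the bZIP factor of light-grown development, went from 23.2 to 18.5 RPKM in set 1 and from 3.96 to 2.02 in set 2. PHYA, the far-red light receptor, went from 68.96 to 40.9 RPKM in set 1 and from 25.5 to 15.7 in set 2. The lower gene was SOM, a CCCH zinc finger gene that blocks germination in the dark, with 71.00 RPKM in wild type and 26.5 in ZFP3ox in set 1, and 25.4 and 6.65 RPKM in set 2.

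**Figure D3:**
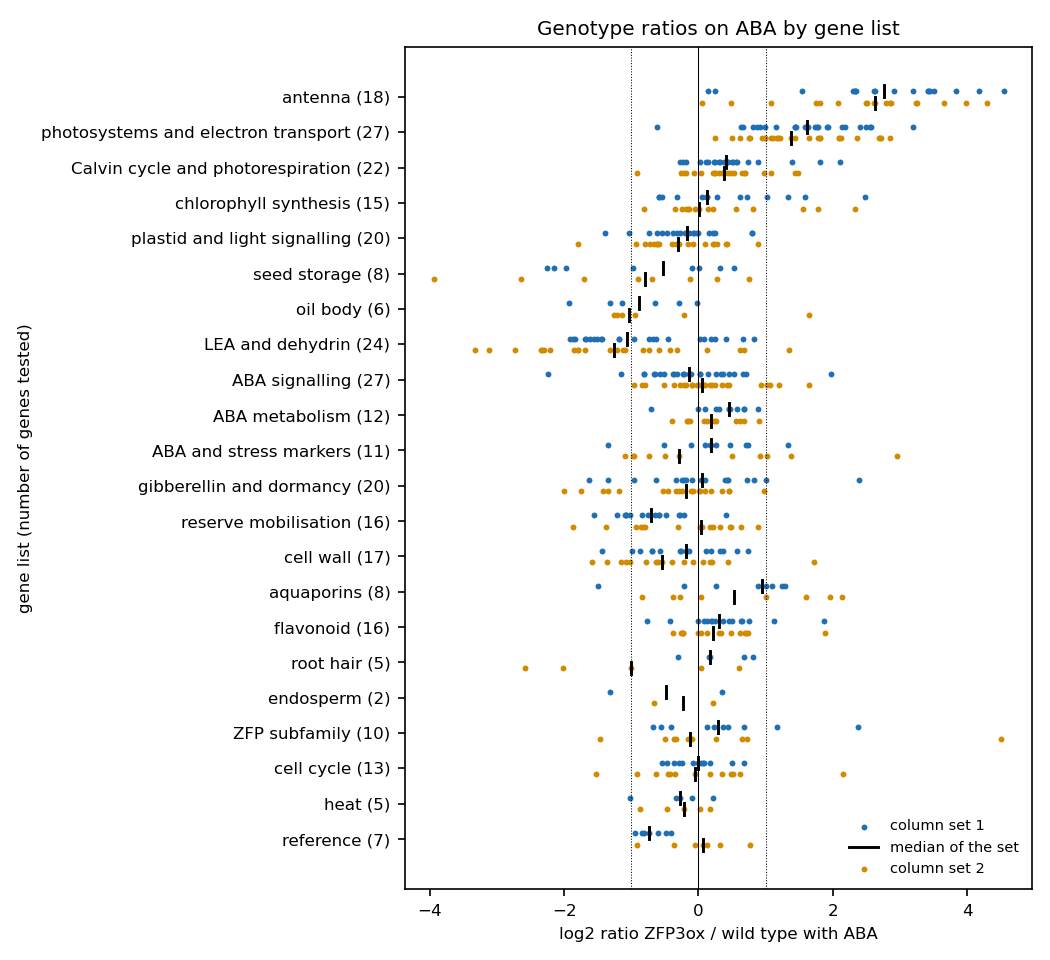
Points are genes of 22 lists (y axis, number tested in brackets) by log2 ratio of ZFP3ox to wild type on ABA (x axis), with set 1 blue, set 2 orange, black bars for medians and dotted lines at 2-fold. Antenna and photosystem genes lie to the right in both sets, with antenna medians of 2.77 and 2.62, and LEA genes to the left, with −1.07 and −1.26.

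LEA and dehydrin genes encode hydrophilic proteins that protect the drying embryo. The list of them held 12 of the 114 lower genes, and lower genes of this family outside the list were not counted. Of the 24 measured 0 were higher, and the medians were −1.07 and −1.26. RAB18 (AT5G66400), a dehydrin and a standard marker of ABA response, had 1114 RPKM in wild type and 363 in ZFP3ox in set 1, and 129 and 18.6 RPKM in set 2. LTI65 (AT5G52300), also known as RD29B, had 355 RPKM in wild type and 119.8 in ZFP3ox in set 1, and 35.5 and 10.4 RPKM in set 2. GEA6 (AT2G40170), also known as EM6, had 357 RPKM in wild type and 125 in ZFP3ox in set 1, and 37.6 and 10.2 RPKM in set 2. The wild type sample was the higher in both sets for all 3 genes. The log2 ratios were −1.61 and −2.74 for RAB18, −1.56 and −1.68 for LTI65 and −1.51 and −1.79 for GEA6.

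The promoters of these 3 genes are shown because ACGTG cores of ABA-responsive elements are known in this family. They lie at chr5:26519448-26519697 on the minus strand, chr5:21236771-21237020 on the plus strand and chr2:16780369-16780618 on the minus strand in TAIR10.1 and are written as those of the antenna genes.

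RAB18: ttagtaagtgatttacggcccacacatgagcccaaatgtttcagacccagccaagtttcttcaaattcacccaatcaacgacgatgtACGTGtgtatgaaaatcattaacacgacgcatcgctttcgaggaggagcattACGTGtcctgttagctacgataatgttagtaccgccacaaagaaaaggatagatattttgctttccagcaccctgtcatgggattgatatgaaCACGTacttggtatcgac

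LTI65: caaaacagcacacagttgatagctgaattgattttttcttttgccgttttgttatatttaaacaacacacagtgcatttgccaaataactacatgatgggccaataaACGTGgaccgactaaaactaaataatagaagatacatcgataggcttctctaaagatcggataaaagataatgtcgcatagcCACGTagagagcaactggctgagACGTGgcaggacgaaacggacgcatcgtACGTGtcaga

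GEA6: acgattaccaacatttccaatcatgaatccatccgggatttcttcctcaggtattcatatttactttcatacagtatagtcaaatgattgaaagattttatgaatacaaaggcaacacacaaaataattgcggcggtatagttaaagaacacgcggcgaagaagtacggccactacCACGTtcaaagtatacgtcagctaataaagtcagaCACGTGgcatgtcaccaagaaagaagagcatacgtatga

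RAB18 held 3 matches and LTI65 4. GEA6 held 3, of which a pair lies in a single palindrome, the G-box CACGTG, which reads as ACGTG on both strands.

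The other lower genes of this list included its most abundant. AT3G15670 went from 1456 to 409 RPKM in set 1 and from 135 to 12.5 in set 2. LEA4-5 went from 714 to 264 RPKM in set 1 and from 149 to 29.03 in set 2. AT2G21490, a dehydrin gene, had ratios of −1.91 and −3.12, LEA7 −1.68 and −2.34, AT3G17520 −1.69 and −2.29 and the EM gene EM1 −1.18 and −1.80. LEA18, ECP63 and AT2G42560 were lower as well. In set 1 the 12 genes had 109.9 to 1456 RPKM in wild type. The members that were not past the rule included cold- and drought-induced genes. COR15A, a chloroplast protein made in the cold, had 9.75 RPKM in wild type and 10.4 in ZFP3ox in set 1, and 1.57 and 1.81 RPKM in set 2. The dehydrin gene ERD14 had 30.9 RPKM in wild type and 41.5 in ZFP3ox in set 1, and 1.84 and 3.53 RPKM in set 2. COR15A, COR15B, ERD14 and M17 had ratios above 0 in both sets, but in set 1 those of COR15A (0.08 and 0.13) and M17 (0.02 and 1.35) were smaller than the shift that scaling makes. The whole list summed to 6999 RPKM in wild type and 2557 in ZFP3ox on ABA in set 1, and to 849.7 and 207 in set 2. Without ABA the sums were 555 and 429 in set 1 and 117 and 68.4 in set 2, so the ZFP3ox sample on ABA stood above both samples without ABA.

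Seed storage genes split by gene. Of 8 tested 3 were lower, with list medians of −0.53 and −0.79. The cruciferin gene CRA1, for a globulin, had 554 RPKM in wild type and 125 in ZFP3ox in set 1, and 131 and 39.7 RPKM in set 2. CRC, a further cruciferin gene also named CRU3, had 246 RPKM in wild type and 50.6 in ZFP3ox in set 1, and 54.1 and 7.86 RPKM in set 2. The vicilin-like storage gene PAP85 had 174 RPKM in wild type and 43.7 in ZFP3ox in set 1, and 50.1 and 2.32 RPKM in set 2. In ZFP3ox on ABA, PAP85 in set 2 was at the level of both samples without ABA, which had 2.20 and 3.69 RPKM. In set 1 it stood above both of them, which had 9.87 and 10.2 RPKM. CRB and SESA4, for another cruciferin and an albumin, had 0.83 to 7.09 RPKM in wild type on ABA and ratios of 0.31 and 0.76 and 0.01 and 0.27. Of 6 oil body genes 2 were lower. OLEO1, a coat protein of oil bodies, had 295 RPKM in wild type and 77.3 in ZFP3ox in set 1, and 25.5 and 11.1 RPKM in set 2. CLO2, a caleosin, had ratios of −1.13 and −1.25. OLEO2 went opposite ways, from 742 to 296 RPKM in set 1 and from 98.4 to 310.4 in set 2.

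**Figure D4:**
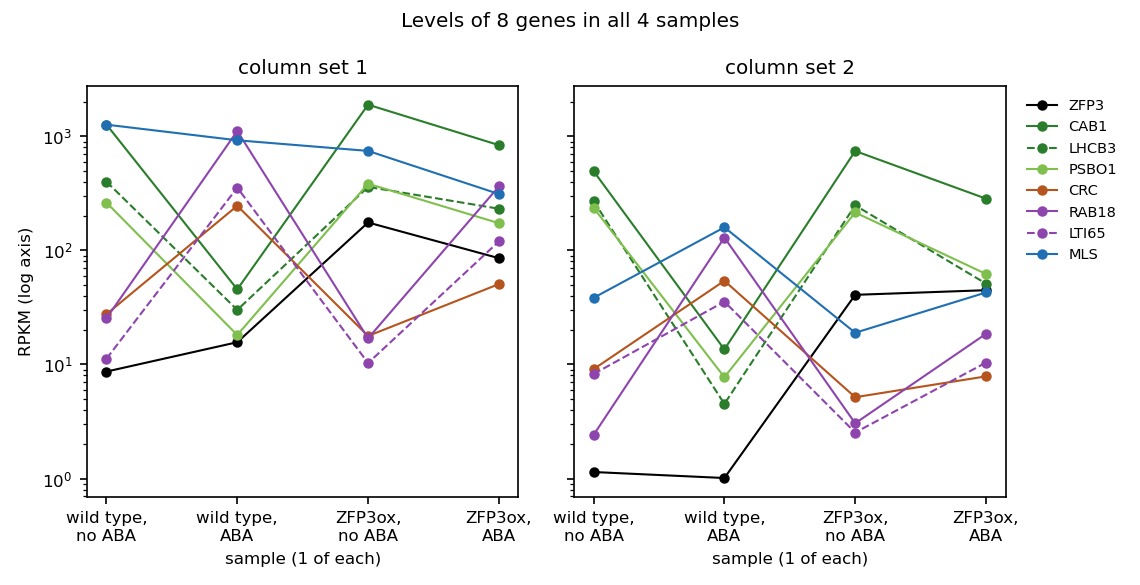
Lines join the RPKM (log y axis) of 8 genes in the 4 samples (x axis, 1 of each), with set 1 on the left and set 2 on the right. On ABA, CAB1 stands at 45.5 RPKM in wild type and 837 in ZFP3ox in set 1, and RAB18 at 1114 and 363.

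Genes that turn stored oil into sugar were described next. Of 16 measured in reserve mobilisation 2 were lower and 0 higher, with medians of −0.70 and 0.04 that lay on both sides of 0. Both lower genes belong to the glyoxylate cycle. ICL, isocitrate lyase, had 2591 RPKM in wild type and 1112 in ZFP3ox in set 1, and 904 and 349.5 RPKM in set 2. MLS, malate synthase, had 923 RPKM in wild type and 312 in ZFP3ox in set 1, and 159 and 42.7 RPKM in set 2. Wild type was the higher in both sets for both. Of the 16 genes 7 had ratios below 0 in both sets and 1 above 0 in both. Among the 7, but not past the rule, the peroxisomal malate dehydrogenase gene PMDH1 had ratios of −1.08 and −0.80. The peroxisomal citrate synthase CSY3 had −1.08 and −0.86, the acyl-CoA oxidase ACX1 −0.65 and −0.92 and the acyl-CoA synthetase LACS6 −0.84 and −0.82. PCK1, which starts the way from the cycle to sugar, had opposite signs in the sets (−1.02 and 0.47), as had KAT2, a thiolase of beta-oxidation (−1.10 and 0.49). SDP6, a mitochondrial glycerol-3-phosphate dehydrogenase that uses the glycerol of the oil and was on no list, was higher, with 143 RPKM in wild type and 638 in ZFP3ox in set 1, and 6.35 and 20.7 RPKM in set 2.

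Of the ABA signalling and ABA metabolism lists 0 of 27 and 0 of 12 genes were past the rule. Over all genes 0.642% were higher and 0.512% lower. A count of 0 in these lists, and in the short lists below, lies near that share. The receptor gene PYR1 was 2-fold lower in set 1 only (−2.23 and 0.05). ABI5 had 59.3 RPKM in wild type and 26.2 in ZFP3ox in set 1, and 13.3 and 26.3 RPKM in set 2, with opposite signs in the sets. ABI4, an AP2-type factor, had ratios of −0.64 and −0.80. The phosphatase genes ABI2 (0.53 and 1.19) and HAI1 (0.66 and 1.07) were above 0 in both sets. In ABA metabolism, NCED5, an enzyme of ABA synthesis, had 0.68 and 0.68, and CYP707A2, which breaks ABA down, 0.57 and −0.15. PDR12, which is ABCG40, an importer of ABA into cells, was on no list and was among the 15 highest genes, with 36.2 RPKM in wild type and 206 in ZFP3ox in set 1, and 10.04 and 72.4 RPKM in set 2. The receptor gene PYL10, also on no list and chosen after its values were seen, was higher (1.20 and 1.36). It had 5.37 RPKM in wild type and 13.7 in ZFP3ox in set 1, and 0.92 and 3.93 RPKM in set 2. It thus passed the filter through ZFP3ox alone.

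Of 11 stress markers outside the LEA family that respond to ABA, 0 were past the rule, with medians of 0.18 and −0.29. KIN1, a small cold-induced gene, had 99.7 RPKM in wild type and 107 in ZFP3ox in set 1, and 4.97 and 11.1 RPKM in set 2. RD22, a BURP-domain gene, had ratios of 0.71 and 1.38. PER1, a peroxiredoxin of dormant seeds, lay just short of the rule in set 2 (−1.35 and −0.98), and ADH1, alcohol dehydrogenase, had −0.51 and 2.95. In the gibberellin and dormancy list 2 of 20 were lower. RGL2, the DELLA repressor of germination, had 86.3 RPKM in wild type and 27.3 in ZFP3ox in set 1, and 23.6 and 5.14 RPKM in set 2. GASA4, a gibberellin-induced peptide, had ratios of −1.35 and −1.74. DOG1, the dormancy gene, had −0.63 and 0.005 and GA3OX1, which makes active gibberellin, 2.38 and −0.53.

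Genes of water channels were higher in 3 of 8, with medians of 0.95 and 0.53. The vacuolar channel TIP1;1 had 11.2 RPKM in wild type and 29.01 in ZFP3ox in set 1, and 1.29 and 7.86 RPKM in set 2. Its relative TIP1;2 had 39.9 RPKM in wild type and 80.8 in ZFP3ox in set 1, and 7.73 and 37.5 RPKM in set 2. The plasma membrane channel PIP1A had ratios of 1.24 and 1.61. TIP3;1, the vacuolar channel of seeds, was below 0 (−1.50 and −0.37). In the cell wall list 1 of 17 was lower, the expansin EXPA1, which loosens growing walls, with 116 RPKM in wild type and 42.5 in ZFP3ox in set 1, and 5.99 and 2.32 RPKM in set 2. XTH7, a xyloglucan-modifying enzyme outside the list, was higher, with 8.81 RPKM in wild type and 48.7 in ZFP3ox in set 1, and 2.30 and 12.3 RPKM in set 2. Of 16 flavonoid genes 0 were past the rule, and PAL1, the entry enzyme, had 0.64 and 0.70. The cell cycle list had 0 of 13 and the heat list 0 of 5 past the rule.

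The rest of the 15 genes with the largest ratios in each direction came from no list. AT4G08770, the peroxidase PRX37, had 6.84 RPKM in wild type and 47.9 in ZFP3ox in set 1, and 2.30 and 20.3 RPKM in set 2. Its ratios of 2.64 and 2.69 lay among those of the antenna. On the lower side AT1G73350 went from 99.2 to 14.6 RPKM in set 1 and from 79.2 to 2.82 in set 2. GRF8, a growth-regulating transcription factor, went from 64.2 to 12.5 RPKM in set 1 and from 28.3 to 3.53 in set 2. LCR69, a defensin-like peptide, had −2.26 and −2.71 and G-TMT, which makes vitamin E, −2.01 and −2.07. Both ratios of AT3G02400 (−3.28 and −2.10), AT5G01080 (−1.997 and −2.06), AT3G54940, a cysteine protease (−1.93 and −3.41), AT1G27461 (−1.91 and −1.92), AT5G51370 (−1.84 and −4.22) and AT1G15330 (−1.83 and −2.76) were below −1.80. EXT10, an extensin of the cell wall, went from 464 to 26.2 RPKM in set 1 and from 4.60 to 0.60 in set 2, so its ZFP3ox value in set 2 was at the limit of the 5% lowest genes.

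Of the chosen genes 39 of 143 higher and 23 of 114 lower were members of a list. Among the rest, picked after their values were seen, 3 genes of lipid transfer proteins were higher. LP1 went from 122 to 260.0 RPKM in set 1 and from 6.72 to 63.2 in set 2, with LTP3 (1.35 and 2.26) and LTP4 (1.21 and 1.08) beside it. In set 2 LTP3 had 0.37 RPKM in wild type and 5.54 in ZFP3ox, so it passed the filter through ZFP3ox alone. LTP4 had 1.10 and 3.43 RPKM in set 2. Of the 61 tested genes with the term lipid transport in the authors' deposited gene annotation 3 (4.92%) were higher, against 0.642% of all genes. The term was picked from the higher genes, so its share is no support for them. The glycine-rich protein genes GRP-3, GRP5, GRP9 and GRP23 had ratios of 1.53 to 1.87 in set 1 and 1.07 to 1.25 in set 2. How many genes of this kind were tested was not counted, so no share is set beside them. On the lower side were 6 genes of cytosolic ribosomal proteins, AT2G21580 (−2.05 and −1.74), XW6 (−1.26 and −1.21), SAG24 (−1.08 and −1.50), AT5G58420 (−1.34 and −1.08), emb2386 (−1.24 and −1.07) and AT1G58684 (−1.59 and −1.04). XW6 and AT1G58684 are close copies, so their single values are uncertain. Of the 386 tested genes with the term translation in that annotation 6 (1.55%) were lower, against 0.512% of all genes. This term too was picked from the chosen genes, so its share is no support for them. Other lower genes were HVA22B, an ABA-induced membrane protein (−1.73 and −1.92), the seed ferritin FER2 (−1.13 and −1.23) and TSPO (−1.04 and −1.22).

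Other terms of that annotation were counted in the same way. The term photosynthesis was carried by 26 of the 143 higher genes, or 18.2%, against 0.296% of all genes tested. Of the 66 tested genes with that term 39.4% were higher. Among the 114 lower genes, embryonic development ending in seed dormancy was carried by 14, or 12.3%, against 1.32% of all. Response to abscisic acid stimulus was on 10 of 114 lower genes (8.77%) and on 4 of 143 higher (2.80%), against 1.21% of all. No test was made of these shares.

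Higher and lower genes also had different levels, which the choice itself uses. The median gene of the higher set had 13.8 RPKM in wild type on ABA in set 1, near the 14.2 RPKM of all genes, while that of the lower set had 121 RPKM. In set 2 the medians were 2.95, 4.42 and 27.3 RPKM in that order of higher, all and lower genes. Of the 143 higher genes 126 had 1 RPKM in both columns of both samples, and 17 passed the filter through ZFP3ox alone. Of the 114 lower genes 110 did, and 4 passed through wild type alone. Nearest to the threshold inside it were AT1G61430 with 1.002 in set 2, and AT1G75340 with −1.003 in set 1. AT2G35585 with 0.998 in set 1 and AT5G01670 with −0.999 in set 2 lay nearest outside among genes past 2-fold in the other set. The median exon length was 1280.5 bases for higher, 1486 for lower and 1700 for all genes.

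Promoter letters were counted in the same 250 bases before the start. ACGTG on either strand was found for 23.3% of all genes tested, 31.0% of the higher genes (44 of 142 with a promoter) and 44.2% of the lower (50 of 113). In the LEA list it was 18 of 24, and 12 of the 12 lower members. In the antenna and photosystem lists together it was 17 of 45, or 37.8%. The G-box CACGTG, which contains ACGTG and so overlaps with that count, was found for 6.93% of all genes, 9.15% of higher and 25.7% of lower genes. The RY element CATGCA, known from seed storage promoters, was found for 8.29%, 10.6% and 18.6% in that order. For the I-box GATAAG, known from light-regulated promoters, the shares were 12.3%, 16.2% and 14.2%, and for CCAAT 46.4%, 56.3% and 57.5%. An RY match can share end letters with a G-box or with CCAAT. These are letter matches, described without a test.

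Markers of other cells and of RNA composition were read beside these results. Of 5 root hair genes 0 were past the rule, and their sum was 53.8 RPKM in wild type and 67.0 in ZFP3ox in set 1, but 55.0 and 20.4 in set 2. Of the 2 endosperm genes MAN7, a mannanase that softens the endosperm, was below 0 in both sets (−1.32 and −0.66) and EPR1 above (0.35 and 0.22), with sums of 53.1 and 26.6 RPKM in set 1 and 16.7 and 11.4 in set 2. No marker was listed at 0. The 7 organelle-encoded genes summed to 2151 and 805 RPKM in set 1 and to 306 and 268 in set 2. The 7 reference genes had 0 past the rule and medians of −0.74 and 0.07, with ACT2, an actin gene, at −0.94 and −0.92. The part of these in the differences of antenna, LEA and storage genes was not tested.

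The same genes were then read without ABA, in a comparison that shares no sample with the one on ABA. Over all genes, 31 (0.142%) were 2-fold higher and 41 (0.187%) lower in both sets. Of the 143 genes higher on ABA 136 could be tested, and 2 of them, GRP-3 and ZFP3, were higher here, which is 1.47% of the former list and 6.45% of the latter. Of the 114 lower genes 110 could be tested and 2 were lower, AT2G26520 and AT5G26260, or 1.82% and 4.88% of the lists. Ratios of the same sign in both sets as on ABA were seen for 46 of 136 and 39 of 110 genes, 33.8% and 35.5%, against 20.6% and 20.7% of all genes on those sides.

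Medians over these genes were nearer to 0 without ABA, while those on ABA are set in part by the choice of genes. The higher genes had medians of 1.53 and 1.64 on ABA but 0.46 and −0.12 without it, where all genes had 0.20 and −0.21. The lower genes had −1.40 and −1.66 on ABA and −0.26 and −0.08 without it. For the antenna list the medians without ABA were 0.49 and −0.11, and for the LEA list −0.16 and −0.29. CAB1 had the same small ratio in both sets, with 1267 RPKM in wild type and 1894 in ZFP3ox in set 1, and 495 and 743 in set 2, or ratios of 0.58 and 0.58. LHCB3 had 400.4 RPKM in wild type and 360.1 in ZFP3ox in set 1, and 270.3 and 248 in set 2, or ratios of −0.15 and −0.12. RAB18 was low in both genotypes, with 25.4 RPKM in wild type and 16.9 in ZFP3ox in set 1, and 2.41 and 3.05 in set 2.

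AT2G26520, a gene with no known role, had the lowest set 1 ratio of the 114 lower genes. On ABA it had 2680.0 RPKM in wild type and 100.2 in ZFP3ox in set 1, and 36.9 and 12.2 RPKM in set 2. Without ABA it had 1035 RPKM in wild type and 48.7 in ZFP3ox in set 1, and 11.4 and 2.42 in set 2. Its ratios were −4.73 and −1.52 on ABA and −4.38 and −1.85 without, so all 4 lay on the same side. GRP-3, a glycine-rich cell wall protein, had ratios of 1.82 and 1.08 on ABA and 1.17 and 1.60 without.

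**Figure D5:**
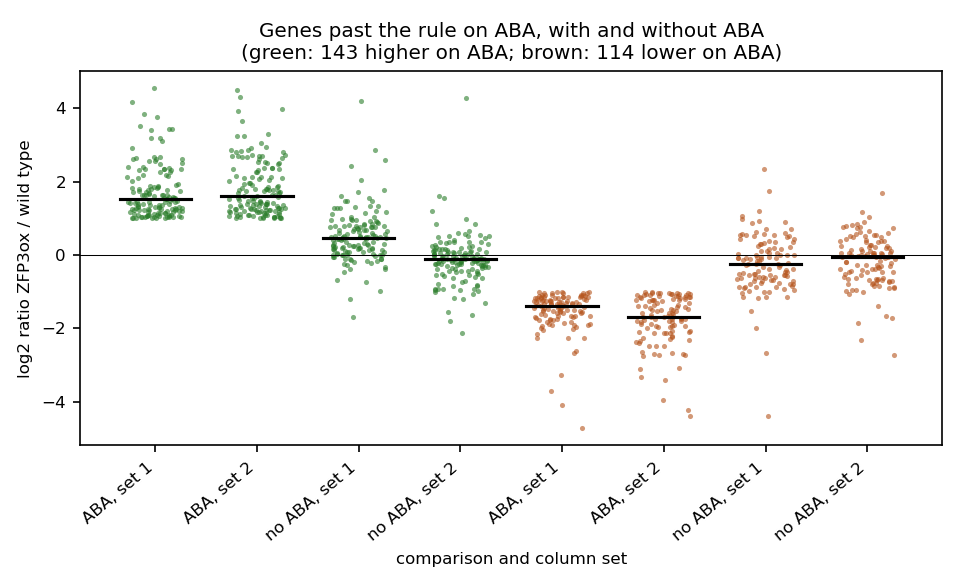
Points are the 143 genes higher (green) and 114 lower (brown) in ZFP3ox on ABA, by log2 ratio of ZFP3ox to wild type (y axis) on ABA and without ABA in each set (x axis), with black bars for medians. The medians of the green genes are 1.53 and 1.64 on ABA and 0.46 and −0.12 without, and on ABA the gap around 0 is made by the choice of genes.

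The authors' deposited tables of selected genes give a signed fold change for 57 of the 143 higher and 79 of the 114 lower genes, each in the same direction. For 56 and 79 of them the authors' fold differed by at most 2% from the average of the set 1 and set 2 ratios of RPKM, taken on the linear scale and without the pseudocount of 1. CAB1 is given there as 19.7-fold higher and LHCB2.1 as 17.6-fold higher.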

How the data were processed

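RNA of 4 seedling samples had been depleted of ribosomal RNA and sequenced as 50-base SOLiD reads, per the labels' protocols. The authors deposited RPKM values for 23932 features, with 2 columns per sample. Per the deposited parameter file, reads were matched in colour space by strand, with up to 2 mismatches and at most 10 matching places, and counted per gene. Whether it covers both sets is not stated. No source used here names the program or the genome build. The authors' deposited tables of selected genes hold a signed fold change, a score of 1 or above, or −1 or below.

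Ratios of log2(RPKM + 1) were taken within a set in Python 3.11.15 with pandas 2.3.3, on genes with 1 RPKM or more in both columns of either ABA sample. Genes 2-fold apart in both sets, the 22 lists and all comparisons were chosen with earlier results of these data known. Named are the 15 genes of each direction with the largest ratios in their weaker set, ZFP3, CAB1, RAB18 and list members. RefSeq's TAIR10.1 gave names, exon lengths and promoters by locus code. The code was in the deposited record for 23438 features. For 251 others it was found by symbol and deposited position, for 196 by symbol alone, and for 47 not at all. Deposited positions served only to choose the locus, and all coordinates printed are those of TAIR10.1. Depth in set 1 was read from the steps of low values. The 2 columns of a group stand for 1 sample, so no test was made and no interval is given. Alternatives were the pseudocount, the filter, the scaling, and each set alone or their mean.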

Additional observations from a re-analysis of the deposited data

Results flagged for a closer look

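AT2G40800 was 2-fold lower in ZFP3ox on ABA in both sets and 2-fold higher without ABA in both sets, so it moved in opposite directions under the same contrast. On ABA it had 98.3 RPKM in wild type and 39.8 in ZFP3ox in set 1, and 10.7 and 3.93 RPKM in set 2, which gives a log2 ratio of −1.26 as the mean of the sets. Without ABA it had 347 and 794.9 RPKM in set 1 and 8.45 and 29.7 in set 2, with ratios of 1.19 and 1.70. The difference was not tested, since each group was 1 sample, and its cause was not tested either. Of the 136 higher and 110 lower genes that could be read without ABA it was the only 1 with opposite 2-fold ratios in both sets.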

How the results depend on the processing

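None of the named genes past the rule changed direction under an alternative, but the rule itself fixed this outcome. It asks for the same direction in both sets, and no filter or pseudocount can turn a ratio within a set. Scaling moved the median of all genes only from 0.14 to −0.04 in set 1 and from −0.03 to 0.00 in set 2. The result is therefore no check of these genes. Of the 22 list medians 0 changed sign under another pseudocount, filter or scaling, while 3 had the other sign in set 1 alone and 6 in set 2 alone. Of 247 list genes and named genes not past the rule, 41 had the other sign in set 1 alone, 53 in set 2 alone, 10 with the other scaling, and 5 and 9 with a pseudocount of 0.1 and 5. Without the filter the counts were the same (143 and 114), which could not be otherwise. With the pseudocount of 1, a 2-fold ratio already needs 1 RPKM or more in the higher sample. The counts depended on the pseudocount and on the demand that both sets agree. A pseudocount of 0.1 gave 256 higher genes and one of 5 gave 60 higher and 65 lower. Set 1 alone gave 1357 higher and 639 lower, set 2 alone 1004 and 1395, and the mean of the sets 607 and 460. Genes past the rule with and without ABA in the same direction numbered 4. With a pseudocount of 0.1 they numbered 8, in set 1 alone 268, in set 2 alone 176 and in the mean 36. These alternatives were chosen after seeing the data. The totals without ABA under them are not given here, so the counts cannot be read as more or less sharing. Of the single genes' values under the alternatives 2035 stayed within the spread of the sets and 154 moved further. Of the lists' medians 118 stayed and 36 moved. For single genes, values in 1 set alone and under another filter stay within that spread by construction. The count of 2035 is therefore no measure of stability. The cause of the shifts under the alternatives was not tested. No paired analysis was possible because each group was 1 sample. Depth limits the weakly expressed genes, and for set 2 it is unknown.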
